A study of Danio rerio with 18 samples.

Results

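Semaphorins are secreted or membrane-bound guidance proteins, plexins are the transmembrane receptors that they bind, and neuropilins are co-receptors that present class 3 semaphorins to plexins. All genes of the zebrafish count table whose gene name begins, in either case, with sema and a digit, with plxna, plxnb, plxnc or plxnd, or with nrp1 or nrp2 were taken, which gave 46 of 25193 genes. They comprised 29 semaphorins (12 of class 3, 8 of class 4, 3 of class 5, 5 of class 6 and 1 of class 7), 13 plexins (4 of type A, 7 of type B, 1 of type C and 1 of type D) and 4 neuropilins. Symbols are given as the name table writes them, many of them in capitals, and the 12 genes that share a symbol with another of the 46 carry the last 5 digits of their Ensembl identifier, as in NRP2_38446.

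When a semaphorin binds, the intracellular part of the plexin acts on small GTPases of the Rap and R-Ras kind, integrin adhesion is lowered, and the actin skeleton of a growth cone or a migrating cell retracts. In the zebrafish trunk, plexin D1 is known as the endothelial receptor that keeps sprouting intersegmental vessels on their path between the somites, in which class 3 semaphorins are made. Neuropilins also bind vascular endothelial growth factor (VEGF) and act with its receptors, so they belong to a pathway of repulsion and to one of vessel growth.

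RNA was sequenced from pooled, transgene-positive zebrafish embryos at 24 hours post fertilization (hpf) in 6 groups of 3 libraries. The AngioTag IP is RNA pulled down from AngioTag transgenic embryos with an antibody to the HA tag, which is carried by ribosomes of endothelial cells, and AngioTag input is the input RNA of that line. The RiboTag IP and RiboTag input are the same preparations from RiboTag transgenic embryos, in which the tag marks the translated RNA of the whole embryo. FACS sorted is RNA from the GFP-positive endothelial cells that flow sorting gave from AngioTag transgenic embryos, and FACS total is total RNA of AngioTag transgenic embryos. Every group therefore carries a tagged-ribosome transgene, and no library without one was compared here. That the tagged protein is rpl10a and that kdrl sequences drive the AngioTag transgene is knowledge of the study, not of the labels. RNA was either poly(A) selected or depleted of ribosomal RNA, and which treatment a given library had is not in the labels. Separate pools of embryos for the 3 samples of a group are not stated, so a p-value here reflects only how far those samples spread, which may be technical.

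Library totals ran from 18.3 to 49.5 M counts, and the 46 genes together took 0.0415% to 0.255% of them. In the second FACS sorted library (18.3 M) the gene zgc:158463 took 15.3% of the counts, and in the first AngioTag IP library (20.7 M) it took 4.19%. The top gene of any other library took 1.23% to 2.78%. Fits without each of these libraries are given below. Levels are given as CPM, the count for each 1 M counts of a library after scaling with TMM factors, always for samples 1, 2 and 3 in that order, and since gene lengths were not used, a level of one gene is not set against that of another. Fold changes are log2 values with their standard error (SE) from edgeR's quasi-likelihood test, and a gene is called higher or lower at a Benjamini-Hochberg adjusted p below 0.05 over all genes tested. As a check of the labels, the endothelial receptor kdrl averaged 506 ± 171 CPM in the AngioTag IP and 26.9 ± 3.26 CPM in AngioTag input, and 1131 ± 229 CPM in FACS sorted and 32.4 ± 4.21 CPM in FACS total (SD, n = 3 each). Listed markers of each cell type were matched by exact gene name, case ignored, so genes that the name table writes otherwise were missed. Of 17 endothelial markers listed, 12 matched. All of these 12 were higher in both the AngioTag IP and FACS sorted. So were 7 of the 8 myeloid markers tested: their summed level was 398 to 981 CPM in the AngioTag IP, against 16.9 to 41.2 CPM in AngioTag input, and 687 to 1648 CPM in FACS sorted, against 22.2 to 46.3 CPM in FACS total. The summed level of 6 mural and mesenchymal markers was also above that of the reference in every library of both groups, at 412 to 558 CPM in the AngioTag IP, against 213 to 234 CPM in AngioTag input, and at 851 to 1075 CPM in FACS sorted, against 409 to 761 CPM in FACS total, although only 1 of the 6 was called higher in each comparison, with 2 lower in the AngioTag IP and 3 in FACS sorted. The 13 neural markers summed to 1210 to 1465 CPM in the AngioTag IP, against 1374 to 1425 CPM in AngioTag input, and to 304 to 519 CPM in FACS sorted, against 919 to 1502 CPM in FACS total. Of these 13, 1 was called higher and 6 lower in the AngioTag IP, and 0 higher and 10 lower in FACS sorted. Of 7 erythroid markers, 3 were called higher and 0 lower in each comparison, with sums of 2413 to 7306 CPM in the AngioTag IP, against 1526 to 2493 CPM in AngioTag input, and of 4481 to 22660 CPM in FACS sorted, against 1686 to 4712 CPM in FACS total. Skeletal muscle markers were lower for 6 of 8 and higher for 2 in the AngioTag IP, where their sums of 13860 to 16260 CPM overlapped the 11160 to 16010 CPM of AngioTag input, and lower for 8 of 8 in FACS sorted, at 346 to 403 CPM, against 1326 to 4637 CPM in FACS total. Of 9 epidermal markers, 3 were lower and 1 higher in the AngioTag IP, and 5 lower and 1 higher in FACS sorted. No marker of these lists was at 0 in all libraries of a group. The part that other cell types have in the results below was not tested.

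In the AngioTag IP, 7 of the 46 genes were called higher than in AngioTag input and 7 lower, 26 passed no threshold and 6 had too few counts to test; of all 17913 genes tested, 12.1% were called higher and 11.9% lower. In FACS sorted, 12 genes were called higher than in FACS total and 10 lower, 22 passed no threshold and 2 were not tested, beside 13.9% of all genes called higher and 14.8% lower. The median log2 fold change was -0.12 over the 40 genes tested in the AngioTag IP, where that of all genes was -0.03, and -0.30 over the 44 tested in FACS sorted, where that of all genes was -0.11. These 2 comparisons use separate libraries. All 7 genes called higher in the AngioTag IP were among the 12 called higher in FACS sorted, and 4 of the 7 called lower in the AngioTag IP were among the 10 called lower in FACS sorted. No gene of the 46 was called in opposite directions. The same overlap was not counted over all genes, so it is not shown to be particular to these families. All 4 neuropilins were called higher in both comparisons. Of the plexins, 1 was called higher and 0 lower of 12 tested in the AngioTag IP (PLXNC1, median log2 fold change -0.07), and 2 higher (PLXNC1 and plxnd1) and 2 lower (PLXNA4 and PLXNB1_75821) of 13 tested in FACS sorted (median -0.49). The semaphorins stood on both sides, with 2 called higher and 7 lower of 24 tested in the AngioTag IP, and 6 higher and 8 lower of 27 tested in FACS sorted. In bulk samples of this kind, a change in how many cells of a type contribute and a change in RNA per cell cannot be told apart.

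**Figure D1:**
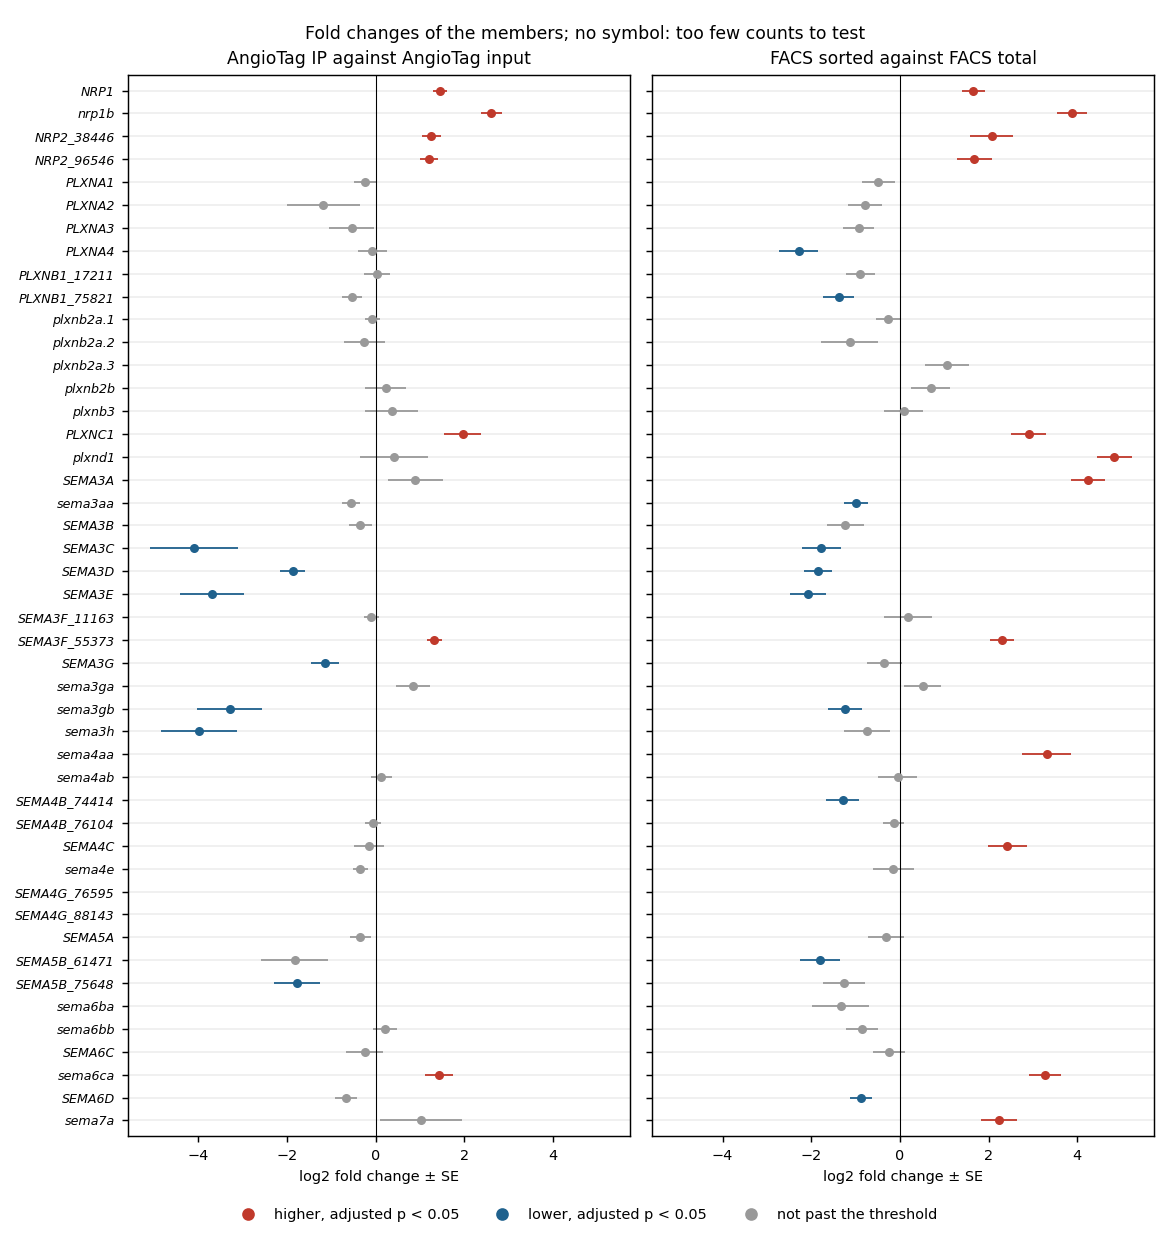
Log2 fold changes with their SE for all 46 genes (rows), left for the AngioTag IP over AngioTag input and right for FACS sorted over FACS total; red points passed the adjusted p threshold upward, blue points downward, grey points not, and a row without a point had too few counts. All 4 neuropilins are red in both panels, while plxnd1 stands at 0.41 on the left and at 4.83 on the right.

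All 4 neuropilin genes in the table, NRP1, nrp1b and a pair that share the symbol NRP2, were higher both on the ribosomes tagged in endothelium and in sorted endothelial cells. Neuropilin 1 is known as a co-receptor for Sema3A and for VEGF, and neuropilin 2 for Sema3F and, in lymphatic and venous endothelium of the mouse, for VEGF-C. NRP1 (ENSDARG00000102153) had 133, 124 and 146 CPM in the AngioTag IP, against 46.5, 49.2 and 49.5 CPM in AngioTag input. Each IP library was thus far above every input library, by a log2 fold change of 1.45 ± 0.16 (SE, edgeR adjusted p = 0.000459). The same gene had 249.6, 185 and 218 CPM in FACS sorted, against 81.2, 78.0 and 51.6 CPM in FACS total. The sorted cells were again above all of the reference, with a log2 fold change of 1.65 ± 0.26 (SE, edgeR adjusted p = 0.00243), although the third FACS total library was lower than the other two. NRP1 had 52.0, 63.1 and 51.2 CPM in the RiboTag IP, against 46.9, 49.1 and 55.0 CPM in RiboTag input, and those 6 libraries lay within the joint range of AngioTag input and FACS total.

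The second neuropilin 1 gene, nrp1b (ENSDARG00000027290), had the largest rise of the families in the AngioTag IP and the third largest in FACS sorted. It had 63.0, 63.8 and 104 CPM in the AngioTag IP, against 12.7, 13.5 and 11.2 CPM in AngioTag input. No IP library came near an input library, and the log2 fold change was 2.61 ± 0.24 (SE, edgeR adjusted p = 0.000175). In the sorted cells the gene was higher still, with 331, 215 and 396 CPM in FACS sorted, against 24.6, 24.8 and 15.8 CPM in FACS total. That difference was 3.88 ± 0.34 (SE, edgeR adjusted p = 0.000124). In the RiboTag line nrp1b had 3.88, 15.1 and 11.6 CPM in the RiboTag IP, against 12.9, 15.3 and 12.9 CPM in RiboTag input, and the first RiboTag IP library was the lowest of all 18.

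The NRP2 copies differed little from each other. NRP2_38446 had 89.0, 131 and 145 CPM in the AngioTag IP, against 46.9, 54.9 and 49.1 CPM in AngioTag input, a log2 fold change of 1.26 ± 0.21 (SE, edgeR adjusted p = 0.00368). NRP2_96546 had 71.9, 104 and 107 CPM in the AngioTag IP, against 37.8, 45.4 and 38.5 CPM in AngioTag input, a log2 fold change of 1.2 ± 0.20 (SE, edgeR adjusted p = 0.00366). For both copies the first IP library was the lowest of the 3 and still above every input library. In FACS sorted the third library stood apart from the first 2 for both genes. NRP2_38446 had 341, 331 and 96.1 CPM in FACS sorted, against 79.3, 70.1 and 36.3 CPM in FACS total, with a log2 fold change of 2.07 ± 0.49 (SE, edgeR adjusted p = 0.013). NRP2_96546 had 246, 205 and 82.7 CPM in FACS sorted, against 64.5, 62.6 and 41.5 CPM in FACS total, with a log2 fold change of 1.68 ± 0.39 (SE, edgeR adjusted p = 0.0125). The sorted and total libraries did not overlap for either gene, and the call of NRP2_96546 ended at an adjusted p of 0.0503 without the first FACS sorted library, the range over its alternatives reaching no higher. Among the RiboTag libraries NRP2_38446 had 52.6, 61.5 and 64.2 CPM in the RiboTag IP, against 50.9, 54.4 and 57.3 CPM in RiboTag input. NRP2_96546 had 25.9, 37.8 and 38.9 CPM in the RiboTag IP, against 39.7, 41.2 and 43.6 CPM in RiboTag input, all 3 IP libraries below the input ones, a difference that did not pass the threshold (log2 fold change -0.24 ± 0.21 SE, edgeR adjusted p = 0.584). All other neuropilin calls in the AngioTag IP and in FACS sorted held under every alternative setting and with any 1 library left out.

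**Figure D2:**
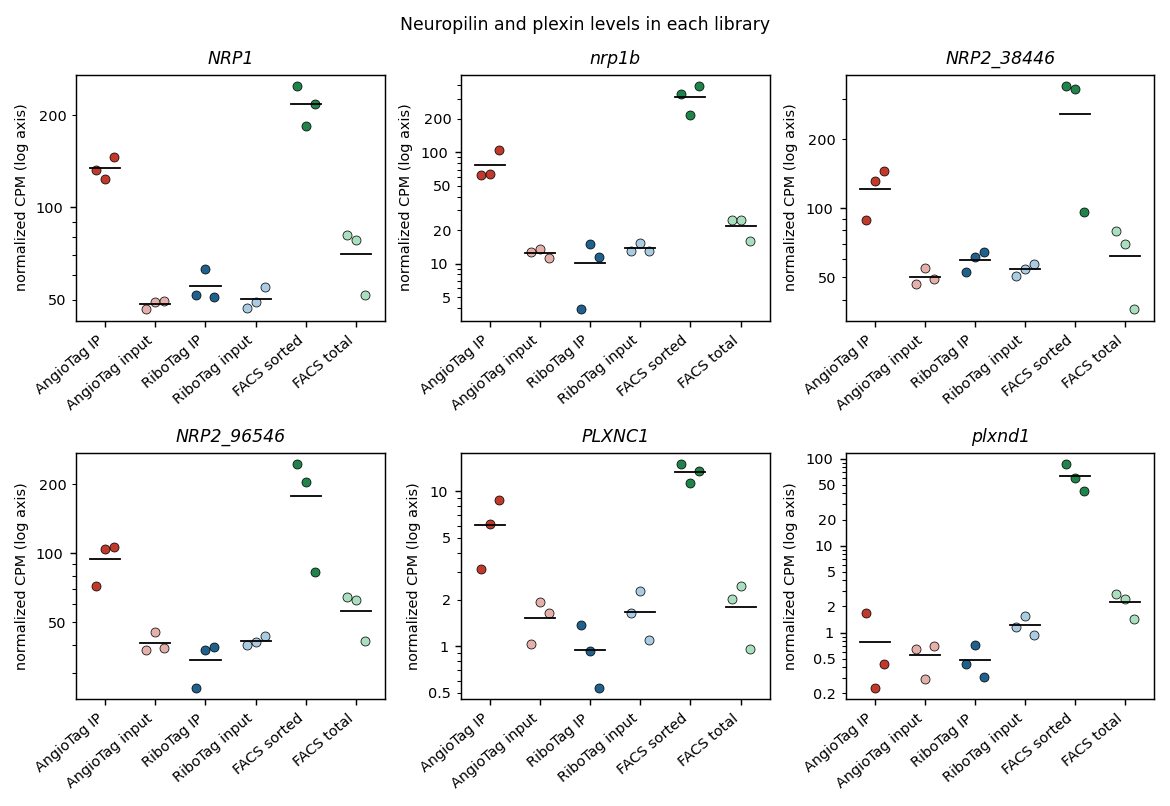
Normalized CPM on a log axis of the 4 neuropilins, PLXNC1 and plxnd1 in each of the 18 libraries (points, by group; lines are group means of 3). The neuropilins are higher in the AngioTag IP and in FACS sorted than in their references, whereas plxnd1 is at 42.4 to 87.1 CPM in FACS sorted and under 3 CPM in all 15 other libraries.

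Among the plexins, the ligand-binding receptors themselves, only plxnd1 and PLXNC1 were called higher in FACS sorted, and only PLXNC1 in the AngioTag IP. Plexin D1, the endothelial receptor of class 3 semaphorins (ENSDARG00000086057), had 87.1, 60.2 and 42.4 CPM in FACS sorted, against 2.80, 2.46 and 1.45 CPM in FACS total. Every sorted library was well above every total library, and the log2 fold change of 4.83 ± 0.39 (SE, edgeR adjusted p = 9.06e-05) was the largest of the 44 genes tested. In the AngioTag line the levels were low: plxnd1 had 1.66, 0.232 and 0.438 CPM in the AngioTag IP, against 0.650, 0.293 and 0.706 CPM in AngioTag input. These rest on 29, 9 and 16 counts in the IP libraries and 22, 12 and 29 in the inputs, and the groups overlapped. The first IP library was the highest of those 6, the difference of 0.41 ± 0.77 (SE, edgeR adjusted p = 0.734) did not pass the threshold, and its sign turned to -0.72 without that library, at an adjusted p of 0.341 (range over the alternatives up to 0.946). With ribosomes tagged throughout the embryo, plxnd1 had 0.431, 0.726 and 0.309 CPM in the RiboTag IP, against 1.17, 1.55 and 0.927 CPM in RiboTag input, the IP libraries all below the input ones without passing the threshold.

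Plexin C1, known as the receptor of the membrane-anchored semaphorin 7A (ENSDARG00000015278), had 3.15, 6.12 and 8.79 CPM in the AngioTag IP, against 1.03, 1.93 and 1.63 CPM in AngioTag input. The groups did not overlap, and the log2 fold change was 1.96 ± 0.42 (SE, edgeR adjusted p = 0.01). The call ended without the third IP library or without the first input library, with adjusted p up to 0.0571. In the sorted cells PLXNC1 had 15, 11.3 and 13.6 CPM in FACS sorted, against 2.01, 2.44 and 0.967 CPM in FACS total, a clear separation with a log2 fold change of 2.90 ± 0.39 (SE, edgeR adjusted p = 0.00114). In the RiboTag line it had 1.36, 0.934 and 0.541 CPM in the RiboTag IP, against 1.64, 2.26 and 1.09 CPM in RiboTag input, with overlapping groups. Its ligand gene sema7a (ENSDARG00000078707) had 3.56, 3.197 and 2.51 CPM in FACS sorted, against 0.828, 0.644 and 0.528 CPM in FACS total, also without overlap, and a log2 fold change of 2.23 ± 0.41 (SE, edgeR adjusted p = 0.00452). Among the AngioTag libraries sema7a had 0, 0.671 and 1.29 CPM in the AngioTag IP, against 0.384, 0.244 and 0.365 CPM in AngioTag input. The first IP library held no count of it and the other IP libraries were above all inputs, and the difference of 1.03 ± 0.92 (SE, edgeR adjusted p = 0.449) did not pass the threshold. Without the first IP library sema7a was called higher (edgeR adjusted p = 0.0253). Its RiboTag values were 0.215, 0.0259 and 0.116 CPM in the RiboTag IP and 0.417, 0.570 and 0.436 CPM in RiboTag input.

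Plexins of types A and B, receptors best known from neurons for type A and as partners of class 4 semaphorins for type B, held the falls. PLXNA4 (ENSDARG00000019328), a receptor of Sema3A in sensory and sympathetic axons of the mouse, had 6.19, 5.56 and 5.51 CPM in FACS sorted, against 29.5, 44.5 and 12 CPM in FACS total. All sorted libraries were near 6 CPM while the total libraries spread widely, and PLXNA4 fell by a log2 value of 2.29 ± 0.44 (SE, edgeR adjusted p = 0.0055). It had 9.81, 26.4 and 15.8 CPM in the AngioTag IP, against 15.2, 18.6 and 20.3 CPM in AngioTag input, overlapping groups with a log2 fold change of -0.07 ± 0.32 (SE, edgeR adjusted p = 0.896). PLXNA4 had 12.4, 18.6 and 13.1 CPM in the RiboTag IP, against 13.1, 16.4 and 13.6 CPM in RiboTag input. The copy PLXNB1_75821 had 26.9, 17.2 and 14.8 CPM in FACS sorted, against 62.4, 64.7 and 28.6 CPM in FACS total and was called lower in FACS sorted, with a log2 fold change of -1.39 ± 0.36 (SE, edgeR adjusted p = 0.0194). Without the second or the third sorted library, or the first or second total library, that call ended, with adjusted p up to 0.0747. It had 23.4, 22.6 and 15.4 CPM in the AngioTag IP, against 36.1, 24.1 and 26.9 CPM in AngioTag input, no overlap but no call (log2 fold change -0.52 ± 0.22 SE, edgeR adjusted p = 0.121). Without the first IP library PLXNB1_75821 was called lower there (edgeR adjusted p = 0.0496). Among the RiboTag libraries it had 34.5, 67.2 and 20.3 CPM in the RiboTag IP, against 23.8, 36.4 and 21.2 CPM in RiboTag input.

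The other copy, PLXNB1_17211, had no call in the main fit of either comparison. It had 22.5, 56.0 and 38.0 CPM in the AngioTag IP, against 32.3, 41.1 and 39.2 CPM in AngioTag input. It had 39.1, 25.8 and 38.1 CPM in FACS sorted, against 71.6, 86.0 and 37.3 CPM in FACS total, and the groups overlapped in both comparisons. With ribosomes tagged throughout the embryo, it had 30.3, 65.2 and 28.8 CPM in the RiboTag IP, against 27.7, 46.2 and 34.5 CPM in RiboTag input. None of the other 3 type A plexins was called in the main fits: the log2 fold changes of PLXNA1, PLXNA2 and PLXNA3 were -0.24, -1.18 and -0.54 in the AngioTag IP and -0.49, -0.79 and -0.94 in FACS sorted. Nor was any of plxnb2a.1, plxnb2a.2, plxnb2a.3, plxnb2b and plxnb3, which lay between -0.26 and 0.37 in the AngioTag IP where tested and between -1.13 and 1.05 in FACS sorted. Upper-quartile scaling and the fit without the third FACS total library did call PLXNA3 and PLXNB1_17211 lower in FACS sorted. The fit without that library also called PLXNA2 lower. Without the first IP library PLXNA3 was called lower in the AngioTag IP. The genes plxnb2a.1, plxnb2a.2 and plxnb2a.3 stand next to each other in the RefSeq annotation of the GRCz12tu assembly, with 0 coding genes between neighbours, and counting may have split reads among such copies.

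Class 3 semaphorins, the secreted ligands of neuropilin and plexin complexes, made up most of the semaphorin falls: of 12 genes, 1 was called higher and 6 lower in the AngioTag IP, and 2 higher and 5 lower in FACS sorted. SEMA3F_55373 (ENSDARG00000055373) was the one called higher in both; Sema3F is known as the ligand of neuropilin 2. It had 42.0, 48.9 and 54.2 CPM in the AngioTag IP, against 19.9, 19.1 and 18.2 CPM in AngioTag input. The IP libraries were tightly grouped above the inputs, with a log2 fold change of 1.33 ± 0.17 (SE, edgeR adjusted p = 0.000887). Its sorted levels were higher again, with 108, 80.8 and 107 CPM in FACS sorted, against 23.8, 22.3 and 15.2 CPM in FACS total, a log2 fold change of 2.30 ± 0.27 (SE, edgeR adjusted p = 0.00053). Both calls held with any 1 library left out. In the RiboTag line SEMA3F_55373 had 14.1, 27.9 and 17.7 CPM in the RiboTag IP, against 16.0, 20.1 and 21.1 CPM in RiboTag input, overlapping groups. The copy SEMA3F_11163 showed neither rise, with a log2 fold change of -0.09 ± 0.17 (SE) in the AngioTag IP and 0.18 ± 0.54 in FACS sorted.

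SEMA3A (ENSDARG00000042210), the founding repulsive ligand of neuropilin 1, had the second largest rise in FACS sorted. It had 247, 98.7 and 155 CPM in FACS sorted, against 9.80, 10.2 and 6.44 CPM in FACS total. Every sorted library was far above every total library, and the log2 fold change was 4.25 ± 0.38 (SE, edgeR adjusted p = 0.000139). On the tagged ribosomes it was scarce, with 2.81, 0.775 and 1.04 CPM in the AngioTag IP, against 1.18, 0.416 and 0.804 CPM in AngioTag input. The first IP library was the highest of those 6, as for plxnd1, and the groups overlapped (log2 fold change 0.90 ± 0.61 SE, edgeR adjusted p = 0.315). Among the RiboTag libraries SEMA3A had 2.62, 3.01 and 0.696 CPM in the RiboTag IP, against 3.75, 4.61 and 1.28 CPM in RiboTag input. The gene listed as sema3aa, known in zebrafish as a somite-derived cue for growing vessels and axons, moved the other way in the sorted cells. It had 23.4, 25.4 and 15.3 CPM in FACS sorted, against 43.0, 47.5 and 38.3 CPM in FACS total, and was called lower with a log2 fold change of -0.99 ± 0.27 (SE, edgeR adjusted p = 0.0259). That call ended without the first or the third sorted library, or the first or second total library, with adjusted p up to 0.0856. In the AngioTag line sema3aa had 33.2, 44.8 and 28.6 CPM in the AngioTag IP, against 57.4, 46.2 and 51.6 CPM in AngioTag input, with every IP library under every input but no call (log2 fold change -0.56 ± 0.20 SE, edgeR adjusted p = 0.074). Upper-quartile scaling, DESeq2 and the fit without the second IP library did call sema3aa lower in the AngioTag IP. It had 58.2, 78.7 and 34.0 CPM in the RiboTag IP, against 53.6, 66.0 and 42.3 CPM in RiboTag input.

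SEMA3D and SEMA3E were the ligands whose falls held in both comparisons under every alternative in which they were tested. Sema3d guides axons and neural crest cells in zebrafish, and in the mouse Sema3E binds plexin D1 directly, without a neuropilin. SEMA3D (ENSDARG00000017369) had 2.35, 4.16 and 2.63 CPM in the AngioTag IP, against 13.7, 9.63 and 9.94 CPM in AngioTag input. The 2 groups were well apart, with a log2 fold change of -1.87 ± 0.28 (SE, edgeR adjusted p = 0.00218). In the cell sort SEMA3D had 5.13, 5.24 and 3.40 CPM in FACS sorted, against 16.0, 14.8 and 19.3 CPM in FACS total, a log2 fold change of -1.85 ± 0.31 (SE, edgeR adjusted p = 0.00291). The RiboTag libraries stood at the upper level, since SEMA3D had 15.1, 18.6 and 15.3 CPM in the RiboTag IP, against 15.5, 15.5 and 13.9 CPM in RiboTag input. SEMA3E (ENSDARG00000036571) had 0, 0.207 and 0.192 CPM in the AngioTag IP, against 2.69, 1.00 and 2.19 CPM in AngioTag input. Those are 0, 8 and 7 counts in the IP libraries, against 91, 41 and 90 in the inputs, and the log2 fold change was -3.69 ± 0.73 (SE, edgeR adjusted p = 0.00747). In the sort it had 1.59, 1.02 and 0.965 CPM in FACS sorted, against 5.80, 6.11 and 3.43 CPM in FACS total, without overlap and with a log2 fold change of -2.07 ± 0.40 (SE, edgeR adjusted p = 0.00591). With ribosomes tagged throughout the embryo, SEMA3E had 1.69, 3.66 and 0.309 CPM in the RiboTag IP, against 2.398, 4.18 and 1.77 CPM in RiboTag input, a wide spread with overlap. The genes sema3d and sema3e lie close together in the GRCz12tu annotation, with 2 coding genes between them.

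SEMA3C, sema3gb, sema3h and SEMA3G were called lower in the AngioTag IP at low counts. Sema3C is known from the cardiac outflow tract and Sema3G from mouse endothelium. SEMA3C had 0, 3 and 0 counts in the IP libraries, against 28, 14 and 24 in the inputs. The ratio of the summed rates, the IP over the input, was 0.0568 (exact 95% interval 0.0114 to 0.173, counting error only), and the fitted log2 fold change was -4.09 ± 0.99 (SE, edgeR adjusted p = 0.0178). Of the 3 IP libraries, 2 held no count, and the fitted value became -7.31 without the second IP library, the one with counts, and -3.48 without the third. For sema3h the IP libraries held 0, 1 and 1 counts, against 15, 14 and 15 in the inputs. Its ratio was 0.0568 (0.00667 to 0.218), with a fitted log2 fold change of -3.98 ± 0.86 (SE, edgeR adjusted p = 0.0109). For sema3gb the counts were 3, 2 and 2 in the IP and 38, 19 and 35 in the input, a log2 fold change of -3.29 ± 0.73 (SE, edgeR adjusted p = 0.0125). SEMA3G had 1.43, 1.32 and 1.12 CPM in the AngioTag IP, against 3.05, 2.396 and 2.97 CPM in AngioTag input, a log2 fold change of -1.14 ± 0.32 (SE, edgeR adjusted p = 0.0314). No IP library of these 4 genes reached an input library. The calls of all 4, and that of SEMA5B_75648, ended without the third IP library, or without the first or the third input library, and those of SEMA3G and SEMA5B_75648 also without the second input library. Those of SEMA3G and sema3gb ended in the fit of all 18 libraries as well. The adjusted p reached 0.0796 for SEMA3C, 0.0663 for sema3h, 0.0718 for sema3gb, 0.159 for SEMA3G and 0.142 for SEMA5B_75648. The 7 falls in the AngioTag IP were therefore 2, SEMA3D and SEMA3E, when the third IP, the first input or the third input library was left out. Of all genes, 871, 947 and 695 were called lower in these fits, against 2130 in the main fit. The falls of these families numbered 5 without the second input library, and 10 without the first or without the second IP library. Of all genes, 1223, 3424 and 2572 were called lower there.

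In FACS sorted the same 4 ligands behaved less alike. SEMA3C had 0.797, 0.767 and 0.711 CPM in FACS sorted, against 2.31, 3.71 and 1.89 CPM in FACS total and was called lower (log2 fold change -1.77 ± 0.44 SE, edgeR adjusted p = 0.0158), a call that ended without the first sorted or the second total library, with adjusted p up to 0.0721. For sema3gb the groups overlapped, with 11.01, 7.22 and 5.84 CPM in FACS sorted, against 20.7, 26.4 and 10.8 CPM in FACS total. Its log2 fold change of -1.25 ± 0.38 (SE, edgeR adjusted p = 0.0369) lost its call with any 1 sorted library left out, and without the first or second total library, with adjusted p up to 0.23. The call also ended with RLE scaling and in the fit of all 18 libraries. The values of sema3h were 0.328, 0.192 and 0.355 CPM in FACS sorted and 0.651, 0.449 and 0.440 CPM in FACS total, with no call (log2 fold change -0.74 ± 0.52 SE, edgeR adjusted p = 0.32). SEMA3G had 10.5, 7.48 and 5.97 CPM in FACS sorted, against 10.2, 15.3 and 5.50 CPM in FACS total, overlapping groups and no call (log2 fold change -0.35 ± 0.40 SE, edgeR adjusted p = 0.556). In the RiboTag line SEMA3C had 0.287, 0.648 and 0.193 CPM in the RiboTag IP, against 0.886, 1.74 and 0.355 CPM in RiboTag input. SEMA3G had 2.69, 6.98 and 2.67 CPM in the RiboTag IP, against 2.53, 5.47 and 2.65 CPM in RiboTag input. For sema3gb the second library was the highest of each group, with 0.287, 2.59 and 0.0386 CPM in the RiboTag IP, against 3.00, 5.61 and 0.737 CPM in RiboTag input. The values of sema3h were 0.108, 0.441 and 0.0386 CPM in the RiboTag IP and 0.730, 1.14 and 0.327 CPM in RiboTag input.

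**Figure D3:**
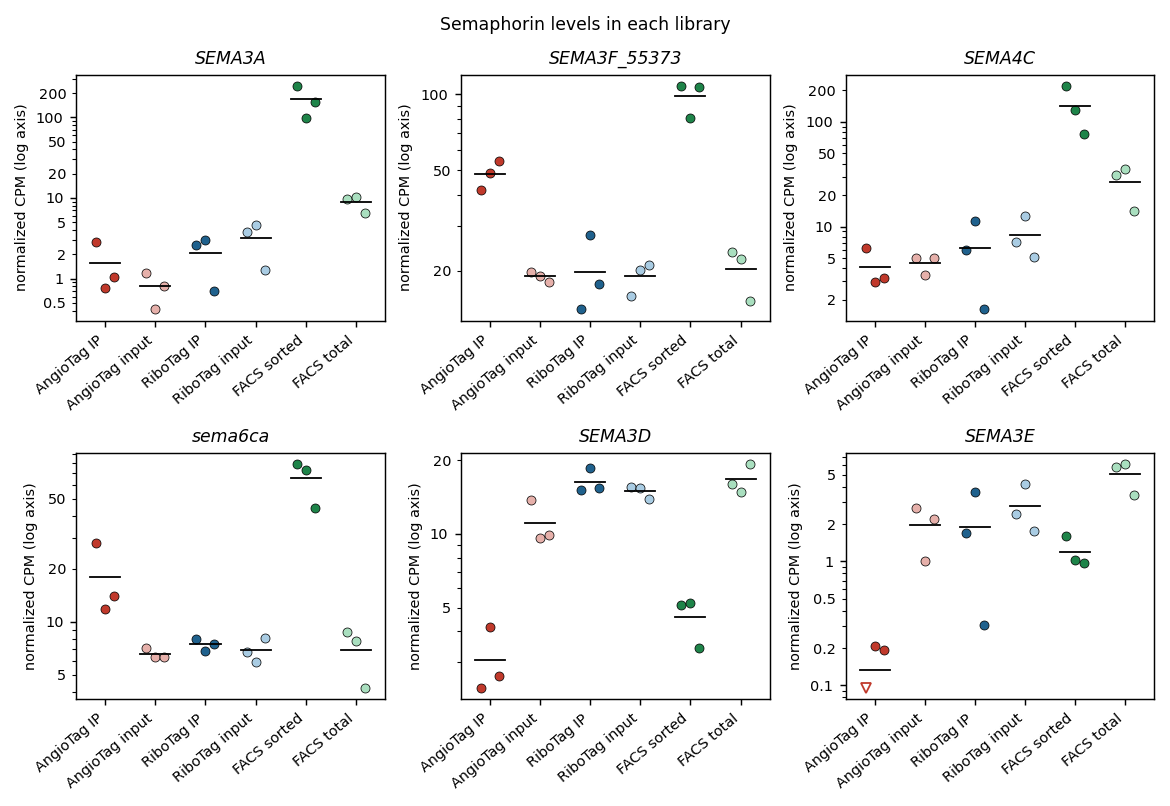
Normalized CPM on a log axis of 6 semaphorins in each of the 18 libraries (points, by group; lines are group means of 3; the open triangle is a library with 0 counts). SEMA3A and SEMA4C stand out in FACS sorted, SEMA3F_55373 and sema6ca in the AngioTag IP and FACS sorted, and SEMA3D and SEMA3E are lower in both than in their references.

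The membrane-bound semaphorins of classes 4 and 6 also held ligands that were higher in sorted cells. Class 4 semaphorins bind type B plexins, and class 6 semaphorins bind type A plexins. SEMA4C (ENSDARG00000079611), a ligand of plexin B2, had 221, 130.3 and 76.7 CPM in FACS sorted, against 31.0, 35.4 and 14.1 CPM in FACS total. The groups did not overlap, and the log2 fold change was 2.42 ± 0.44 (SE, edgeR adjusted p = 0.00455). Among the AngioTag libraries SEMA4C had 6.25, 2.97 and 3.23 CPM in the AngioTag IP, against 4.997, 3.45 and 5.07 CPM in AngioTag input, overlapping groups with a log2 fold change of -0.15 ± 0.34 (SE, edgeR adjusted p = 0.788), and in the RiboTag line it had 5.92, 11.3 and 1.62 CPM in the RiboTag IP, against 7.07, 12.6 and 5.13 CPM in RiboTag input. Its relative sema4aa was highest in the sorted cells, with 4.92, 1.73 and 3.30 CPM in FACS sorted, against 0.197, 0.390 and 0.418 CPM in FACS total and a log2 fold change of 3.31 ± 0.54 (SE, edgeR adjusted p = 0.00282). The AngioTag IP held only 0, 0 and 3 counts of sema4aa and AngioTag input 0, 2 and 4, too few to test. Its RiboTag values were 0, 0.259 and 0 CPM in the RiboTag IP and 0.261, 0.207 and 0 CPM in RiboTag input.

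Within class 6, sema6ca (ENSDARG00000002748) was called higher in both comparisons. It had 28.1, 11.8 and 14.1 CPM in the AngioTag IP, against 7.10, 6.33 and 6.28 CPM in AngioTag input, the first IP library well above the other two, and a log2 fold change of 1.43 ± 0.32 (SE, edgeR adjusted p = 0.0127). That call ended without any 1 of the input libraries, with adjusted p up to 0.0602. In the sort sema6ca had 78.5, 72.5 and 44.4 CPM in FACS sorted, against 8.69, 7.79 and 4.22 CPM in FACS total, without overlap and with a log2 fold change of 3.26 ± 0.36 (SE, edgeR adjusted p = 0.000406). It had 7.93, 6.85 and 7.50 CPM in the RiboTag IP, against 6.70, 5.92 and 8.10 CPM in RiboTag input, values that overlapped. SEMA6D (ENSDARG00000011533) was the member of class 6 called lower, in the main fits in FACS sorted alone. It had 81.5, 74.7 and 67.6 CPM in FACS sorted, against 151, 164 and 103 CPM in FACS total, a log2 fold change of -0.88 ± 0.25 (SE, edgeR adjusted p = 0.0293), and the call ended with any 1 sorted library left out and without the first or second total library, with adjusted p up to 0.116. In the AngioTag line SEMA6D had 12.6, 26.6 and 19.7 CPM in the AngioTag IP, against 34.6, 29.5 and 28.9 CPM in AngioTag input, without overlap but without a call (log2 fold change -0.67 ± 0.25 SE, edgeR adjusted p = 0.0839). Upper-quartile scaling, DESeq2 and the fit without the second IP library did call SEMA6D lower in the AngioTag IP. It had 25.7, 31.0 and 35.7 CPM in the RiboTag IP, against 26.2, 36.5 and 28.4 CPM in RiboTag input.

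Of the 3 class 5 semaphorins, which carry thrombospondin repeats, 1 was called lower in each comparison and none higher. SEMA5A was called in neither, with a log2 fold change of -0.34 ± 0.23 (SE) in the AngioTag IP and -0.32 ± 0.42 in FACS sorted. SEMA5B_75648 was called lower in the AngioTag IP, with a log2 fold change of -1.77 ± 0.51 (SE, edgeR adjusted p = 0.0345), and had -1.27 ± 0.47 (SE, edgeR adjusted p = 0.0756) in FACS sorted without a call. Upper-quartile scaling and the fit without the third FACS total library did call it lower in FACS sorted. SEMA5B_61471 had 5.58, 3.197 and 4.42 CPM in FACS sorted, against 17.9, 22.4 and 6.46 CPM in FACS total and was called lower there (log2 fold change -1.80 ± 0.45 SE, edgeR adjusted p = 0.0173), except without the second sorted or the first or second total library, with adjusted p up to 0.0666. Among the AngioTag libraries SEMA5B_61471 had 0.688, 0.103 and 0.164 CPM in the AngioTag IP, against 1.36, 0.636 and 1.05 CPM in AngioTag input, with the first IP library above the second input library and no call (log2 fold change -1.83 ± 0.75 SE, edgeR adjusted p = 0.105). Without the first IP library SEMA5B_61471 was called lower there (edgeR adjusted p = 0.00299). It had 1.87, 1.69 and 0.773 CPM in the RiboTag IP, against 1.51, 3.77 and 1.17 CPM in RiboTag input. SEMA4B_74414 had 5.34, 2.30 and 6.12 CPM in FACS sorted, against 10.9, 11.9 and 11.4 CPM in FACS total, a log2 fold change of -1.29 ± 0.38 (SE, edgeR adjusted p = 0.031). This call was lost in the fit of all 18 libraries, and without the first or second sorted library or any 1 total library, with adjusted p up to 0.0988. SEMA4B_74414 held 0, 3 and 1 counts in the AngioTag IP and 7, 6 and 10 in AngioTag input, too few to test. Among the RiboTag libraries it had 0, 0.207 and 0.0386 CPM in the RiboTag IP, against 0.886, 2.07 and 0.355 CPM in RiboTag input. The other copy, SEMA4B_76104, had no call in either comparison. It had 17.6, 19.1 and 15.7 CPM in the AngioTag IP, against 19.3, 15.3 and 19.0 CPM in AngioTag input. It had 38.7, 30.0 and 31.0 CPM in FACS sorted, against 34.4, 38.4 and 38.5 CPM in FACS total, and the groups overlapped. With ribosomes tagged throughout the embryo, it had 16.1, 22.3 and 15.3 CPM in the RiboTag IP, against 20, 23.1 and 19.6 CPM in RiboTag input.

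The number of falls called in FACS sorted, 10 in the main fit, depended on single libraries of both groups. It was 3 (PLXNA4, SEMA3D and SEMA3E) without the second FACS total library, 4 without the first, and 15 without the third, SEMA4B_74414 not among them. Of all genes, 1821, 1653 and 2741 were called lower in these fits, and 2868 in the main fit. The third FACS total library was the lowest of its group for 17 of the 20 genes treated below as higher in FACS total than in AngioTag input, and for 20 of the other 23 tested, against 46.8% of all genes of at least 1 CPM on average. Leaving out a sorted library gave 5 or 6 falls, beside 1563 to 2547 of all genes. The 12 rises held in every such fit, NRP2_96546 without the first sorted library excepted.

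The RiboTag comparison sets pulled-down RNA against input RNA for the same genes when ribosomes are tagged throughout the embryo. An effect of the pull-down and a difference between translated and input RNA cannot be told apart in it. There, without use of the sample numbers, 0 of 41 genes tested were called by edgeR in either direction, beside 0.7% of all genes called higher and 0.496% lower. So few of all genes were called in that fit that its 0 does not show these genes to be unmoved by the pull-down. Of all 18134 genes tested, 3362 had an unadjusted edgeR p below 0.05, and of these 41 it was 1 lower and 0 higher. That gene was SEMA4B_74414 (log2 fold change -3.54 ± 1.11 SE, edgeR adjusted p = 0.147), which DESeq2 and the fit of all 18 libraries called lower. Samples of the same number deviated together in this line. With the sample number as a block 3 genes were called lower, sema3gb, SEMA4B_74414 and SEMA5B_75648, and none higher. That fit called 1268 of all 18134 genes lower and 1306 higher. The same 3 were called lower without the second RiboTag IP library, beside 1014 of all 18716 genes, and 0 with any other library left out. The fold changes of the neuropilins there were 0.18 ± 0.19 for NRP1, -0.39 ± 0.41 for nrp1b, 0.18 ± 0.18 for NRP2_38446 and -0.24 ± 0.21 for NRP2_96546 (log2, SE).

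The difference between the enrichments of the 2 lines was tested as an interaction over 12 libraries. Of 41 genes tested, 6 had a larger log2 fold change in the AngioTag line and 1 a smaller one, beside 4.46% and 3.53% of all genes (7.99% in both directions). All 4 neuropilins were among the 6. The difference was 2.98 ± 0.51 (SE, edgeR adjusted p = 0.00216) for nrp1b, 1.25 ± 0.24 (SE, edgeR adjusted p = 0.0049) for NRP1, 1.42 ± 0.30 (SE, edgeR adjusted p = 0.00867) for NRP2_96546 and 1.07 ± 0.28 (SE, edgeR adjusted p = 0.0321) for NRP2_38446. The receptor PLXNC1 differed by 2.70 ± 0.66 (SE, edgeR adjusted p = 0.0217) and the ligand SEMA3F_55373 by 1.21 ± 0.33 (SE, edgeR adjusted p = 0.0361). SEMA3D was the one with a smaller value, at -2.05 ± 0.34 (SE, edgeR adjusted p = 0.00198). With the sample number as a block the counts were 7 and 2, with sema6ca and PLXNB1_75821 added, beside 1495 and 1484 of all 19046 genes. The calls of NRP1, nrp1b and SEMA3D held under all alternatives, and that of NRP2_96546 under all but the fit of all 18 libraries, where its adjusted p was 0.05. The call of PLXNC1 ended without the third AngioTag IP, the first or the third AngioTag input, or the second RiboTag input library, with adjusted p up to 0.0804. NRP2_38446 lost its call in the fit of all 18 libraries, and without the second or the third AngioTag IP, any 1 AngioTag input, the first RiboTag IP or any 1 RiboTag input library, with adjusted p up to 0.216. SEMA3F_55373 lost it without the second or the third AngioTag IP, any 1 AngioTag input, the first RiboTag IP, or the second or the third RiboTag input library, with adjusted p up to 0.105. Leaving out 1 library gave 3 to 7 larger values, 3 of them without the third AngioTag IP, the first or the third AngioTag input or the second RiboTag input library, and up to 3 smaller ones, the 3 without the third RiboTag IP library. Of all genes, 553 to 1181 had larger values in these fits and 273 to 946 smaller ones, against 850 and 672 in the main fit.

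The 2 pull-downs were also set directly against each other, a comparison that shares its libraries with those above. Of 34 genes tested, 7 were called higher in the AngioTag IP than in the RiboTag IP and 3 lower, beside 9.86% and 8.76% of all genes. The log2 fold change was 2.88 ± 0.45 (SE, edgeR adjusted p = 0.00155) for nrp1b and 2.62 ± 0.54 (SE, edgeR adjusted p = 0.00696) for PLXNC1. The remaining neuropilins stood at 1.42 ± 0.29 (SE, edgeR adjusted p = 0.00715) for NRP2_96546, 1.24 ± 0.27 (SE, edgeR adjusted p = 0.00939) for NRP1 and 0.99 ± 0.29 (SE, edgeR adjusted p = 0.0321) for NRP2_38446. SEMA3F_55373 had 1.24 ± 0.31 (SE, edgeR adjusted p = 0.0173) and sema6ca 1.24 ± 0.37 (SE, edgeR adjusted p = 0.0358). The 3 lower genes were SEMA3D at -2.46 ± 0.34 (SE, edgeR adjusted p = 0.000694), SEMA3G at -1.72 ± 0.54 (SE, edgeR adjusted p = 0.0445) and sema4e at -1.04 ± 0.28 (SE, edgeR adjusted p = 0.0239). The calls of nrp1b and SEMA3D held with any 1 library left out. Without the third AngioTag IP library, or without the first RiboTag IP library, only 2 rises and 1 fall, that of SEMA3D, were called. The 2 rises were nrp1b and NRP2_96546 without that AngioTag library, and nrp1b and PLXNC1 without that RiboTag library. Of all genes, 806 and 959 were called higher and 370 and 740 lower in these fits, against 1685 and 1498 in the main fit. The falls were also 1 without the second AngioTag IP library, and 5 without the third RiboTag IP library, beside 835 and 1359 of all genes. The fold change of SEMA3G was -1.09 without the second RiboTag IP library, at an adjusted p reaching 0.205 over its alternatives. The call of sema6ca ended with upper-quartile scaling, without the first or the third AngioTag IP library and without any 1 RiboTag IP library (adjusted p up to 0.116), and its value was 0.77 at the lowest. NRP2_38446 also lost its call with upper-quartile scaling, which left 5 rises, and without the second AngioTag IP library, with adjusted p up to 0.158. The call of sema4e ended without the second or the third AngioTag IP or the first or the third RiboTag IP library (up to 0.15), and that of SEMA3G with the block and without any 1 AngioTag IP or the first or second RiboTag IP library. With the block, sema4ab and PLXNB1_75821 were called and SEMA3G was not, which gave 8 and 3, beside 2360 and 1909 of all 17096 genes.

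The sorted cells and the tagged ribosomes were compared by the difference of their enrichments, each over its own reference. Of 44 genes tested, 5 had a smaller log2 fold change by pull-down than by sorting and 1 a larger one, beside 5.12% and 3% of all genes (8.12% in both directions). The 5 were plxnd1 at -4.49 ± 0.81 (SE, edgeR adjusted p = 0.00729), SEMA3A at -3.37 ± 0.69 (SE, edgeR adjusted p = 0.013), sema3h at -3.25 ± 0.94 (SE, edgeR adjusted p = 0.0485), SEMA4C at -2.56 ± 0.60 (SE, edgeR adjusted p = 0.0228) and sema6ca at -1.80 ± 0.51 (SE, edgeR adjusted p = 0.0448). PLXNA4 differed by 2.23 ± 0.58 (SE, edgeR adjusted p = 0.0335) in the other direction. Only plxnd1 kept its call under all alternatives; without the first AngioTag IP library its value was -5.56 and that of SEMA3A -4.08. SEMA3A lost its call without the first AngioTag input library alone, at an adjusted p of 0.0506, the highest over its alternatives. SEMA4C lost it without the second or the third AngioTag IP, the first or the third AngioTag input or the first sorted library, with adjusted p up to 0.0619. With 1 library left out, the call of sema3h held only without the second sorted library, that of sema6ca only without the first AngioTag IP or the third sorted library, and that of PLXNA4 only without the first AngioTag IP, the second sorted or the third total library. Their adjusted p reached 0.117, 0.107 and 0.0953. The number of smaller values without 1 library was 1 to 7, the 1 without the first AngioTag input library and the 7 without the second sorted library, and the larger one was absent in 9 of those 12 fits. Of all genes, 403 had smaller values without that AngioTag input library and 1251 without that sorted library, against 1031 in the main fit. Larger values numbered 99 to 736 of all genes over those fits, against 605.

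The 2 references of this difference were not alike for these genes, so FACS total was also fitted against AngioTag input, a comparison added after the values were seen. Both are RNA of AngioTag transgenic embryos, but the preparation of the RNA, and possibly its selection, differed between them, and the parts of these in a difference cannot be told apart. Of 43 genes tested, 20 were called higher in FACS total and 2 lower, beside 25.2% and 21.2% of all genes. Markers of other cell types moved with this contrast: 7 of 13 neural markers were lower and 2 higher, 4 of 8 skeletal muscle markers lower and 1 higher, and 4 of 9 epidermal markers lower and 1 higher. Skeletal muscle markers summed to 1326 to 4637 CPM in FACS total, against 11160 to 16010 CPM in AngioTag input, and epidermal markers to 8426 to 18120 CPM in FACS total, against 21620 to 27500 CPM in AngioTag input. Erythroid markers were higher for 3 of 7 and endothelial markers for 5 of 12, with 2 of the 12 lower. The part of these markers' cells in the differences was not tested. The median log2 fold change of the 43 was 0.69, where that of all genes was -0.02. SEMA4B_74414 had 10.9, 11.9 and 11.4 CPM in FACS total, against 0.207, 0.147 and 0.243 CPM in AngioTag input. The 3 FACS total libraries were close to each other and far above every input library, with a log2 fold change of 5.72 ± 0.29 (SE, edgeR adjusted p = 2.10e-05). PLXNA2, a type A plexin, had 15.5, 18.6 and 6.60 CPM in FACS total, against 0.591, 0.171 and 0.390 CPM in AngioTag input, a log2 fold change of 5.04 ± 0.53 (SE, edgeR adjusted p = 0.000296). The plexin gene plxnb3 had 20.8, 38.3 and 11.1 CPM in FACS total, against 1.54, 0.782 and 0.925 CPM in AngioTag input and 4.32 ± 0.49 (SE, edgeR adjusted p = 0.00039). These 3 genes did not overlap between the groups.

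The ligands sema3gb, sema6ba, SEMA5B_61471 and sema3ga followed, at 4.46 ± 0.43 (SE, edgeR adjusted p = 0.000211), 4.24 ± 0.95 (SE, edgeR adjusted p = 0.00773), 3.83 ± 0.49 (SE, edgeR adjusted p = 0.000674) and 3.57 ± 0.35 (SE, edgeR adjusted p = 0.00021). For sema6ba, a gene of very few counts, the value was 6.13 without the first AngioTag input library and 3.61 without the third. Of the genes whose enrichment differed between pull-down and sort, 3 were among the 20, with log2 fold changes of 3.36 ± 0.39 (SE, edgeR adjusted p = 0.00045) for SEMA3A, 2.46 ± 0.34 (SE, edgeR adjusted p = 0.000941) for SEMA4C and 1.91 ± 0.42 (SE, edgeR adjusted p = 0.00706) for plxnd1. SEMA6D had 151, 164 and 103 CPM in FACS total, against 34.6, 29.5 and 28.9 CPM in AngioTag input, a log2 fold change of 2.06 ± 0.21 (SE, edgeR adjusted p = 0.000263). The remaining 9 of the 20, from PLXNA3 at 2.98 to nrp1b at 0.69, were SEMA5B_75648, SEMA3C, plxnb2a.3, SEMA3G, plxnb2b, SEMA3E and SEMA4B_76104 beside those 2. The 2 lower genes were sema4e at -0.97 ± 0.19 (SE, edgeR adjusted p = 0.00401) and SEMA3B at -0.82 ± 0.24 (SE, edgeR adjusted p = 0.0237). Of the neuropilins, NRP1 and the NRP2 copies were not called, at 0.43 ± 0.20, 0.18 ± 0.27 and 0.36 ± 0.20 (log2, SE). The call of nrp1b ended in the fit of all 18 libraries, with the block, and without the first or second FACS total or any 1 input library, with adjusted p up to 0.127. Those of plxnb2b, SEMA3E and SEMA3B ended without the second or the third input library, that of plxnb2b also without the second FACS total library, that of SEMA3B without the first and that of SEMA3E without either. Their adjusted p reached 0.0644, 0.113 and 0.134. In the fit of all 18 libraries the calls of SEMA3E, SEMA3B, plxnb2a.3 and sema4e ended as well. The number of higher genes was 31 without the third FACS total library and 17 to 19 without any other, and that of lower genes was 1 without the first FACS total or the second or the third AngioTag input library and 3 without the third FACS total library. Of all genes, 6367 were higher and 6002 lower without the third FACS total library. Without any other, 3518 to 4284 were higher and 2372 to 3226 lower, against 4848 and 4075 in the main fit.

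**Figure D4:**
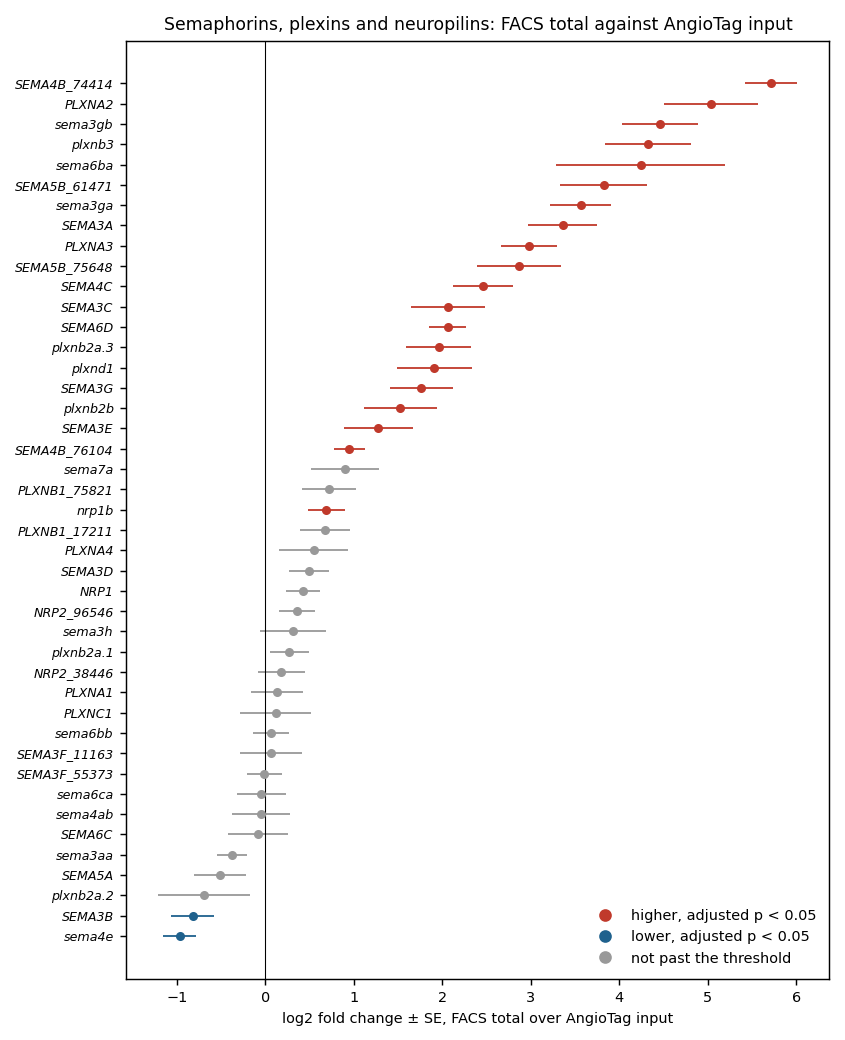
Log2 fold changes with their SE of FACS total over AngioTag input for the 43 genes tested, in order of size; red points were called higher, blue points lower, grey points neither. The values run from -0.97 for sema4e to 5.72 for SEMA4B_74414, with 20 red and 2 blue points.

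Across all 18 libraries, every FACS sorted library was above every one of the 12 AngioTag and RiboTag IP and input libraries for 21 of the 46 genes, and every FACS total library was above all 12 for 15 genes. Over all 24333 genes with a count in any library, the same held for 17.1% of genes in FACS sorted and for 14.3% in FACS total. PLXNA3, for example, reached at most 16.9 CPM in those 12 libraries, against at least 20.01 CPM in FACS sorted and at least 30.4 CPM in FACS total. Single libraries also moved many of the genes together. The second RiboTag input library was the highest of its group for 19 of the 20 genes higher in FACS total and for 14 of the other 23 tested, against 44.9% of all genes of at least 1 CPM on average. The second FACS total library was the highest for 17 of the 20 and 11 of the 23 (36.2% of all genes), and the first AngioTag input library for 14 and 9 (40.9%). The second AngioTag input library was the lowest for 16 and 7 (34.8%). In the AngioTag IP the first library was the highest for 11 and 2 (34.3%) and the lowest for 7 and 15 (46.6%). The first FACS sorted library was the highest for 16 and 14 (34.6%) and the lowest for 0 and 0 (17.9%). The second RiboTag IP library was the highest for 14 and 16 (41.6%). The difference between the 20 genes and the other 23 was not tested. Which property of those libraries moves with the genes was not tested.

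Of the 46 genes, 20 were called in the main fits of none of the 6 comparisons other than that of the references. They were PLXNA1, PLXNA2, PLXNA3, PLXNB1_17211, plxnb2a.1, plxnb2a.2, plxnb2a.3, plxnb2b and plxnb3 among the plexins, and SEMA3B, SEMA3F_11163, sema3ga, sema4ab, SEMA4B_76104, both SEMA4G copies, SEMA5A, sema6ba, sema6bb and SEMA6C among the semaphorins. The SEMA4G copies had too few counts to test in any of these comparisons, with at most 0.375 CPM for SEMA4G_76595 and 0.323 CPM for SEMA4G_88143 in any library. SEMA3B had -1.23 ± 0.41 in FACS sorted (log2, SE, edgeR adjusted p = 0.0525), every sorted library under every total library. Upper-quartile scaling, DESeq2, no filter, the stricter filter, all 18 libraries in 1 fit and the block did call SEMA3B lower there. So did the fits without the second sorted or the third total library. In the AngioTag IP it was called lower without the second IP library.

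The wider pathway was described with 84 listed partners, that is VEGF receptors, adhesion co-receptors, GTPases and their regulators, collapsin response mediators and actin regulators, of which 52 matched a gene of the table by exact name. The other names, among them vegfaa and rac1b, had no match, which does not show that those genes are absent from the table. In the AngioTag IP 19 of 48 tested were called higher and 3 lower, with a median log2 fold change of 0.21, and in FACS sorted 15 of 52 were higher and 8 lower, with a median of 0.16; the shares of all genes called and their medians are those given above. The VEGF receptors led both: flt1 rose by 4.41 ± 0.25 (SE, edgeR adjusted p = 2.42e-05), kdrl by 4.22 ± 0.28 (SE, edgeR adjusted p = 3.45e-05) and KDR by 3.13 ± 0.26 (SE, edgeR adjusted p = 9.62e-05) in the AngioTag IP, and by 5.82 ± 0.52 (SE, edgeR adjusted p = 0.000141), 5.14 ± 0.31 (SE, edgeR adjusted p = 3.82e-05) and 5.69 ± 0.35 (SE, edgeR adjusted p = 4.10e-05) in FACS sorted. All of flt1, kdrl and KDR were also among the endothelial markers used above as a check, and kdrl sequences drive the AngioTag transgene. They count among the 19 and 15 rises, so their lead is no separate result about this pathway. The LIM kinase gene limk1b, whose protein phosphorylates the actin-severing factor cofilin, followed with 1.79 ± 0.24 (SE, edgeR adjusted p = 0.00117) in the AngioTag IP and 3.74 ± 0.33 (SE, edgeR adjusted p = 0.000131) in FACS sorted. In the AngioTag IP the small GTPase gene rap1b (1.73 ± 0.18 (SE, edgeR adjusted p = 0.000323)) and mical3b (1.70 ± 0.24 (SE, edgeR adjusted p = 0.00149)), of the MICAL family of actin-oxidizing enzymes, came next. In FACS sorted these places were held by the Rac regulator sh3bp1 (2.91 ± 0.53 (SE, edgeR adjusted p = 0.00429)) and by MRAS (2.84 ± 0.31 (SE, edgeR adjusted p = 0.000412)), a gene of the Ras family whose symbol is shared by another gene of the table.

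Partners that fell in the AngioTag IP were the adhesion molecule gene l1cama, a neuropilin partner in axons, at -3.04 ± 0.76 (SE, edgeR adjusted p = 0.0202), the receptor kinase gene MET at -3.03 ± 0.72 (SE, edgeR adjusted p = 0.0168) and cfl1l at -0.69 ± 0.18 (SE, edgeR adjusted p = 0.0213). In FACS sorted the 6 largest falls were CRMP1 at -2.28 ± 0.42 (SE, edgeR adjusted p = 0.00438) and DPYSL4 at -1.50 ± 0.42 (SE, edgeR adjusted p = 0.0269), 2 collapsin response mediators, chl1b at -2.13 ± 0.30 (SE, edgeR adjusted p = 0.00148), l1camb at -2.08 ± 0.54 (SE, edgeR adjusted p = 0.0197) and l1cama at -1.87 ± 0.53 (SE, edgeR adjusted p = 0.0272), 3 adhesion molecules of the L1 family, and micall2b at -1.59 ± 0.30 (SE, edgeR adjusted p = 0.00499). The neural markers were lower in the same sorted libraries, as given above. The partner rises numbered 10 without the third and 12 without the first AngioTag input library, and the 3 falls numbered 0 without either, 1 without the second input or the third IP library, and 8 without the first IP library. Of all genes, 1026 and 1126 were called higher without those input libraries, against 2170 in the main fit. Falls of all genes numbered 695 and 947 there, and 1223, 871 and 3424 in the later fits in that order, against 2130. Among the partners named, MET lost its call without the first or the third AngioTag input library, and l1cama and cfl1l lost theirs without any 1 input library or the third IP library. In the fit of all 18 libraries cfl1l was not called, and under the stricter filter l1cama was not. In FACS sorted the falls numbered 4 without the first sorted library and 3 without the first or the second total library. Of all genes, 1563, 1653 and 1821 were called lower in these fits, against 2868 in the main fit. In that comparison l1cama and l1camb lost their calls in the fit of all 18 libraries, with the block, and without the first or second sorted or the first or second total library. DPYSL4 lost its call without the first or the third sorted or the first or second total library. In the RiboTag line 1 partner of 51, CTTN, was called higher and none lower by edgeR, and that call ended without the first RiboTag IP library or any 1 RiboTag input library. DESeq2 called 4 partners higher and 0 lower there, beside 919 and 656 of all 18134 genes. The fit with the sample number as a block called 5 and 1, beside 1306 and 1268.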

How the data were processed

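The authors deposited unnormalized counts, whole numbers for each Ensembl gene in each of 18 libraries from pooled 24 hpf zebrafish embryos. The sources used here do not give whether these were rounded estimates, which annotation was used or whether strand was counted. STAR 2.4.2a, RSEM 1.2.22, DESeq2 and genome build GRCz10 are named, per the submitters' processing notes, without their roles; per the labels' protocols the kit was stranded. Of 25193 genes, 22548 received a symbol from an Ensembl name table. Counting may split reads between near-identical copies, so single copies that share a symbol are less certain. No coordinates or sequences are given, since no genome of that build was used here.

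Genes were fitted in R 4.3.3 with edgeR 4.0.16 (quasi-likelihood F test, TMM factors, filterByExpr with a minimum count of 10 and a minimum total count of 15) on the libraries of the groups compared alone, with Benjamini-Hochberg adjustment of p over every gene tested. The SE of a fold change is its size divided by the square root of F. The 2 differences of enrichments are contrasts over 12 libraries. CPM levels used TMM factors over all 18 libraries, and values after ± are SD over 3 libraries or SE as stated. Within groups the samples differed by 17.4 to 534.9 times counting error (chi-square per degree of freedom), so none was a duplicate. Intervals cover counting error only. The procedure was tested on simulated data.

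Alternatives were DESeq2 1.42.0, upper-quartile and RLE scaling, a fit without a filter, one with a filter of 1 CPM in at least 3 libraries, all 18 libraries in 1 fit, the sample number as a block, and leaving out each library in turn. Sample numbers come from the titles. They were taken to pair the samples where every correlation of same-numbered deviations was over 0.1: 0.449, 0.226 and 0.25 between the AngioTag IP and its input, 0.311, 0.718 and 0.515 in the RiboTag line, and 0.221, 0.26 and 0.193 between the pull-downs. The highest value between differently numbered samples was 0.225, 0.177 and -0.0126 in that order, so the second AngioTag sample was no clearer than a mismatched pair. The pull-downs come from different lines, and what same-numbered samples share there is not stated.

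The genes, the lists and the tests were chosen with earlier results of these data known. Values by library are given for genes called in the AngioTag IP, in FACS sorted or in the difference between AngioTag and RiboTag enrichments, up to 24 of the 25 in order of adjusted p, for plxnd1 and the neuropilins, and for the uncalled semaphorin and plexin of highest mean CPM. That rule named nrp1a, nrp2a and nrp2b, while the name table holds NRP1 and 2 genes called NRP2. Partners are named up to 6 in each direction by size. Genes described beyond that, among them PLXNA2, plxnb3 and the others in the comparison of FACS total with AngioTag input, were chosen after their values were seen.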

Additional observations from a re-analysis of the deposited data

Results flagged for a closer look

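Several enrichments differed between preparations by a test of the difference itself, as the contrasts above report. In the AngioTag line minus the RiboTag line, the log2 difference was 2.98 for nrp1b (edgeR adjusted p = 0.00216), 2.70 for PLXNC1 (0.0217), 1.42 for NRP2_96546 (0.00867), 1.25 for NRP1 (0.0049), 1.21 for SEMA3F_55373 (0.0361), 1.07 for NRP2_38446 (0.0321) and -2.05 for SEMA3D (0.00198). In the pull-down minus the sort it was -4.49 for plxnd1 (edgeR adjusted p = 0.00729), -3.37 for SEMA3A (0.013), -3.25 for sema3h (0.0485), -2.56 for SEMA4C (0.0228), -1.80 for sema6ca (0.0448) and 2.23 for PLXNA4 (0.0335). For plxnd1, SEMA3A and SEMA4C, FACS total was also above AngioTag input, as given above. By its definition the difference rises with FACS total and falls with AngioTag input, so that gap enters these negative values with a plus sign. It also falls with FACS sorted and rises with the AngioTag IP, so the gap between those groups enters with a minus sign. Mean levels in FACS sorted and the AngioTag IP were 63.2 and 0.778 CPM for plxnd1, 166.8 and 1.54 CPM for SEMA3A, and 142.7 and 4.15 CPM for SEMA4C. The sign of 1 gap therefore does not give the direction of a preparation effect. The part of the preparations in the difference was not tested. Groups of 3 libraries are too small for a test of single outlying libraries.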

How the results depend on the processing

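Of 81 calls of single genes, 43 held under every alternative in which the gene was tested. SEMA3E in the AngioTag IP and sema6ba in FACS total were not tested under the stricter filter. Leaving out each library in turn gave 5 to 8 rises and 2 to 10 falls in the AngioTag IP, 11 to 12 and 3 to 15 in FACS sorted, 0 to 0 and 0 to 3 in the RiboTag IP, 2 to 7 and 1 to 5 between the pull-downs, 3 to 7 and 1 to 3 for AngioTag minus RiboTag enrichment, 0 to 1 and 1 to 7 for AngioTag minus FACS enrichment, and 17 to 31 and 1 to 3 for FACS total against AngioTag input. Over all genes the same fits gave 1026 to 3099 rises and 695 to 3424 falls in the AngioTag IP. They gave 1668 to 3108 and 1563 to 2741 in FACS sorted, and 0 to 864 and 5 to 1014 in the RiboTag IP. Between the pull-downs they gave 806 to 1764 and 370 to 1382. AngioTag minus RiboTag enrichment had 553 to 1181 and 273 to 946, and AngioTag minus FACS enrichment 99 to 736 and 403 to 1251. FACS total against AngioTag input had 3518 to 6367 and 2372 to 6002. Among the other settings, falls numbered 3 in the AngioTag IP under the stricter filter, which tested fewer genes, beside 1972 of all genes. In the RiboTag IP they numbered 1 with DESeq2 and with all 18 libraries in 1 fit, and 3 with the replicate block, beside 656, 439 and 1268 of all genes. Between the pull-downs they were 5 without a filter and 9 with all 18 libraries. Of all genes, 1624 and 2973 were called lower in these fits, against 1498 in the main fit. AngioTag minus RiboTag enrichment gave 2 smaller values with DESeq2 and 2 with the block, and AngioTag minus FACS enrichment 10 smaller values with DESeq2 and 0 larger ones with the block. Of all genes, 1147 and 1484 had smaller values in the first pair of fits. In the second pair 2154 had smaller values with DESeq2 and 519 larger ones with the block. FACS total had 0 lower genes with all 18 libraries in 1 fit, beside 2488 of all genes. The cause of these changes, beyond the genes tested, was not tested. The block moved no count in the AngioTag IP (7 and 7) and gave 12 and 11 in FACS sorted, where the numbers did not pair the samples (correlations 0.401, -0.00718 and 0.169), nor did those of FACS total and AngioTag input (0.0239, -0.19 and -0.124), which gave 19 and 2. Of all genes, the block called 2352 higher and 2552 lower in the AngioTag IP, and 2516 and 2609 in FACS sorted. It called 4294 and 3484 in FACS total against AngioTag input. Of 12 uncalled log2 fold changes followed, 9 in the AngioTag IP and 3 in FACS sorted, 4 turned in sign with 1 library left out. Over these fits plxnd1 ran from -0.72 to 0.88 in the AngioTag IP, negative without IP 1. PLXNA4 ran there from -0.49 to 0.21, positive without IP 1, IP 3 or input 3 (0.0019 and 0.020 for the last 2). SEMA4C ran there from -0.55 to 0.055, positive without IP 2 or IP 3 (0.0076). SEMA3G ran from -0.64 to 0.042 in FACS sorted, positive without FACS total 2. With upper-quartile scaling the all-gene median was -0.24 in the AngioTag IP, against -0.03 with TMM, and -0.31 in FACS sorted, against -0.11. It gave 7 rises and 10 falls in the AngioTag IP, and 12 and 14 in FACS sorted. Of all genes, it called 1461 higher and 3078 lower in the AngioTag IP, and 2199 and 3657 in FACS sorted. Depth limits the genes of few counts, among them SEMA3C, sema3h, sema3gb, sema4aa and the SEMA4G copies.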
